A study of Mus musculus with 6 samples.

Results

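The 48 genes described here encode the machinery of mitosis and the spindle, from cyclin B and its kinase to the proteins that part the daughter cells. They were found by gene symbol in the deposited table of 55011 genes, and each of the 48 had a row. All passed the filter on low counts, with 71 to 1396 counts per gene and library. They were read in 6 libraries of polyadenylated RNA from cultured mesenchymal stromal cells of mouse visceral fat (VAT in the sample labels, eWAT in the design text), which include precursors of adipocytes. The cells of both groups carry the genotype label Il33-EGFP-, that is, they lacked the green reporter of the alarmin gene Il33. Culture lasted 3 days, either in phosphate-buffered saline (PBS) or in irisin/HSP90α at 10 nM (called irisin here), with 3 libraries each, where irisin is a hormone cleaved from the muscle protein Fndc5 and HSP90α a chaperone. Whether the PBS wells held HSP90α, the age and sex of the mice, and whether replicates were separate cultures or animals were not found in the labels. P-values therefore measure the spread between these libraries, which may be technical. The design text poses the question of whether such treatment moves adipocyte precursors toward an immunomodulatory state.

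A cell enters mitosis when Cdk1, bound to cyclin B, is switched on by Cdc25 phosphatases. Its chromosomes then attach by their kinetochores to spindle microtubules, and the spindle checkpoint holds the anaphase-promoting complex (APC/C) until each is attached. The genes of these proteins are transcribed together late in the cycle, and many carry near their start a short element, the cell cycle genes homology region (CHR), that is bound by the DREAM and MuvB complexes, often with CCAAT boxes upstream that bind NF-Y. Replication genes are transcribed earlier, at the start of S phase, and many answer to E2F. In cultured stromal cells, levels of these messengers rise and fall with the share of cells that divide, and in bulk RNA more cells in mitosis and more of a messenger per cell cannot be told apart.

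The RefSeq promoter table (GRCm38.p6, 250 bases before to 50 after a transcript start) had an entry for 40 of the 48 members, and lacked Ccna2, Cdc25c, Aurkb, Incenp, Spc24, Kif20a, Tpx2 and Cdca2. The letters TTTGAA of the CHR, on either strand, lay between 100 bases before and 50 bases after a start in 29 of the 40 (72.5%), against 9.23% of the 27025 genes in the table and 3 of 35 genes (8.57%) of a replication and S-phase list. CCAAT, on either strand, lay in the same window in 28 of the 40 (70.0%), in 21 of the 35 (60.0%) and in 26.3% of all genes. The E2F letters TTTGGCGC or TTTCGCGC lay there in 1 of the 40 (2.5%), in 8 of the 35 (22.9%) and in 0.507% of all genes. A CHR overlapped a CCAAT at 1 place in the members' promoters. These matches describe letters and not bound sites. Printed here, with CHR and CCAAT letters in capitals and written 5′ to 3′ along the gene, are the 100 bases before the start of the 5 members with the highest counts that hold a CHR there. Top2a (chr11:99024190-99024289, minus strand) has 3 CCAAT before its CHR, Prc1 (chr7:80294376-80294475, plus strand) has 1, and Cdc20 (chr4:118437344-118437443, minus strand) has 2 around it. Cdk1 (chr10:69352913-69353012, minus strand) has 2 of each and Ube2c (chr2:164769829-164769928, plus strand) has 2 CCAAT and 1 CHR.
Top2a: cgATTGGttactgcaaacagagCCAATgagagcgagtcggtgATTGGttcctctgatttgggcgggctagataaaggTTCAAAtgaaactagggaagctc
Prc1: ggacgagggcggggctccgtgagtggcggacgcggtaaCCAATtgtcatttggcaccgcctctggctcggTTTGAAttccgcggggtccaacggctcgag
Cdc20: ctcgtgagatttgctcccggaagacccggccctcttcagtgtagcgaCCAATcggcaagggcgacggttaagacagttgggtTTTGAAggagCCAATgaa
Cdk1: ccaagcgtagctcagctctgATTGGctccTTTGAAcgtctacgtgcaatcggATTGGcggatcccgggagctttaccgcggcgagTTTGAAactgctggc
Ube2c: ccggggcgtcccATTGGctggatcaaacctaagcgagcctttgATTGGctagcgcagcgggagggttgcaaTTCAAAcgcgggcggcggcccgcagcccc

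**Figure D1:**
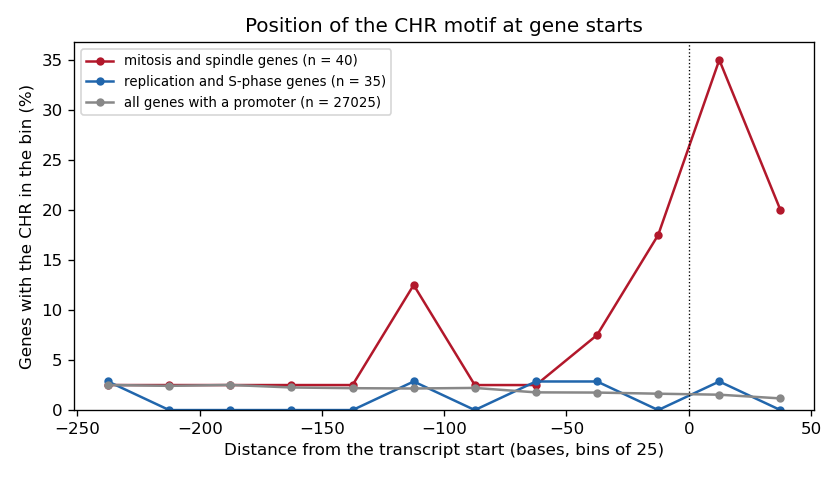
The share of genes with a CHR is plotted by distance from the transcript start in bins of 25 bases, for 40 mitosis and spindle genes, 35 replication and S-phase genes and 27025 genes in all. In the mitosis and spindle genes the share is highest in the bin from the start to 25 bases after it, at 35%.

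Of the 4 members that passed the test described further on, 3 are in the promoter table, and these are shown because they passed. Each carries a CHR just after the start. A CHR is common in the members, at 72.5% of the 40 (100 bases before to 50 after a start). Ccnb2 (chr9:70421525-70421624, minus strand) and Cenpa (chr5:30666816-30666915, plus strand) are printed from 70 bases before to 30 bases after the start. Plk1 is printed as the 70 bases before the start (chr7:122159365-122159434, plus strand) and as the 30 bases that hold its CHR (chr7:122159453-122159482, plus strand). Cenpa has no CCAAT in the stretch shown, and has 2 further upstream.
Ccnb2: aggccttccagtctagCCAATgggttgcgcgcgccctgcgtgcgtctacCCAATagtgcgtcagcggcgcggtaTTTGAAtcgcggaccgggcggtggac
Cenpa: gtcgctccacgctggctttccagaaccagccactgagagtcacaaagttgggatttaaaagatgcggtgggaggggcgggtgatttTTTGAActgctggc
Plk1, before the start: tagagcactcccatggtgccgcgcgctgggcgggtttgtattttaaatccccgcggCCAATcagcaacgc
Plk1, after the start: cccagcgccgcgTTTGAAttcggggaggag

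Library totals ran from 5271309 to 6745799 counts. Levels are given as CPM (counts scaled to library size). LFC is the log2 ratio of irisin to PBS with its standard error, and each adjusted p is edgeR's, from the quasi-likelihood test, Benjamini-Hochberg adjusted over 12296 genes and read at 0.05. PBS replicate 3 and irisin replicate 1 stood apart from the other 4 libraries on the second principal component (23.9% of variance), so results are also given without both. Of 12 stromal markers (Pdgfra, Col1a1, Dcn and others) each had counts, with summed levels of 38450 to 46030 CPM in PBS and 51600 to 56470 CPM with irisin. Most of that sum is collagen (Col3a1, Col1a1 and Col1a2). Of the 12, 2 passed as higher (Pdgfra and Col1a1) and 5 as lower (Lum, Thy1, Cd34, Dpt and Fbln1, LFC -0.76 to -1.40), with a median LFC of -0.10. Of 8 mature adipocyte markers 7 had counts, Lep being at 0, with sums of 168.9 to 275.2 CPM in PBS and 44.2 to 53.0 CPM with irisin. All 6 of them that were tested passed as lower, with a median LFC of -2.27, against 3.22% of all genes that fell. The 12 macrophage markers summed to 71.3 to 88.6 CPM in PBS and 71.7 to 92.9 CPM with irisin, with C1qa at 0, and the 8 T and NK cell markers to at most 2.08 CPM in any library, with Cd3d, Cd3e and Cd3g at 0. The 8 endothelial markers summed to 31.1 to 38.4 CPM in PBS and 19.9 to 27.0 CPM with irisin, the 8 pericyte and smooth muscle markers to 2231 to 2519 and 1843 to 2106 CPM, and the 8 mesothelial markers to 37.2 to 42.9 and 44.1 to 54.1 CPM, with Upk1b at 0. The B cell, neutrophil and epithelial lists stayed at or below 2.88 CPM in each library. Tek, the 1 endothelial marker tested, passed as lower, as did 2 of 6 tested pericyte and smooth muscle markers (Cspg4 and Des). Of the macrophage and mesothelial markers tested, 0 passed. Csf1r (286 to 414 counts) made up most of the macrophage sum and Tek (93 to 238 counts) most of the endothelial sum. Acta2 (10000 to 15813 counts) and Wt1 (188 to 315 counts) did so for the pericyte and mesothelial lists. Ptprc, Pecam1, Rgs5 and Msln had at most 3, 6, 10 and 3 counts in any library. These sums therefore do not show that such cells were present. The part of any other cell types in the results below was not tested.

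Most mitosis and spindle genes had a small positive LFC with irisin, and few passed the test. Of the 48, 4 passed the test as higher, 0 passed as lower and 44 did not pass. The risers are Ccnb2 (cyclin B2, a partner of Cdk1), Cdc25c (a phosphatase that switches Cdk1 on), Plk1 (a kinase of spindle assembly and mitotic exit) and Cenpa (the histone variant that marks centromeres). That is 8.33% of the members, against 4.2% of all genes tested that rose and 3.22% that fell (7.42% in either direction). At an unadjusted p under 0.05, 13 members were higher and 0 lower, against 9.27% and 8.91% of all genes. The median LFC was 0.18, against -0.01 over all genes tested, and 42 of the 48 members (87.5%) had an LFC above 0, against 48.7% of all genes. With total-count scaling 38 members stayed above 0. In 17 members (35.4%) each irisin value lay above each PBS value, against 12.1% of all genes, and in 0 members below, against 11.5%. The members are transcribed together, so they are not 48 separate observations.

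**Figure D2:**
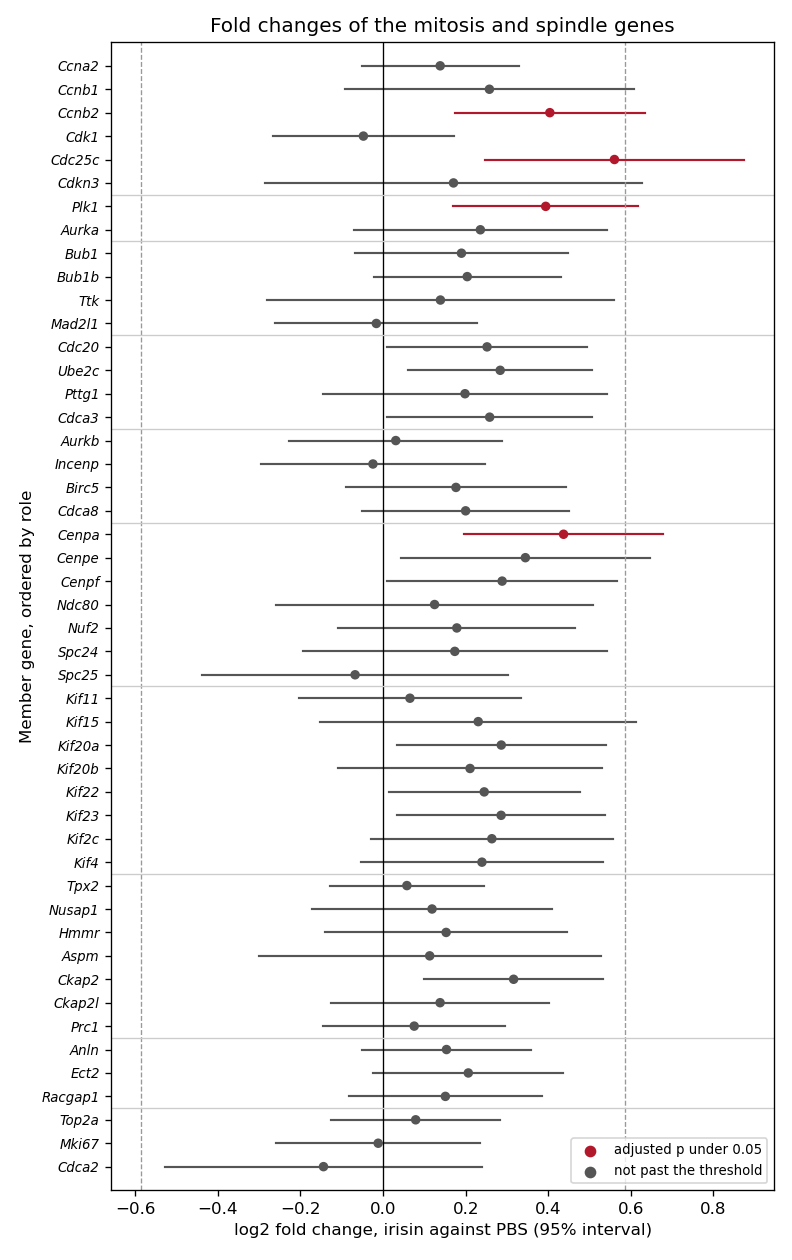
Points are LFC of irisin against PBS for the 48 members in order of role, bars are 95% intervals from the fit, and dashed lines mark a 1.5-fold change either way. The 4 red points (Ccnb2, Cdc25c, Plk1 and Cenpa) passed the test, and 42 points lie to the right of 0.

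The 4 calls were small and did not hold in each set of libraries. Ccnb2 measured 51.2, 62.9 and 59.1 CPM in PBS and 76.8, 74.2 and 77.9 CPM with irisin, so that each irisin library lay above each PBS library (LFC 0.40 ± 0.11, adjusted p = 0.0370). Cdc25c was the least abundant of the 4, at 15.5, 16.004 and 14.9 CPM in PBS and 22.4, 21.1 and 24.98 CPM with irisin, again with no overlap (LFC 0.56 ± 0.14, adjusted p = 0.0330). Plk1 measured 62.6, 70.5 and 70.7 CPM in PBS and 84.2, 86.0 and 97.3 CPM with irisin (LFC 0.39 ± 0.10, adjusted p = 0.0357). For Plk1 the lowest irisin value was 84.2 CPM and the highest PBS value 70.7 CPM. Cenpa measured 43.0, 48.8 and 52.8 CPM in PBS and 62.1, 65.3 and 68.0 CPM with irisin (LFC 0.44 ± 0.11, adjusted p = 0.0301), with PBS replicate 1 the lowest library for Cenpa, Ccnb2 and Plk1. The number of members called was 0 without PBS replicate 1, irisin replicate 2 or irisin replicate 3, 1 without PBS replicate 2 (Ccnb2) and 2 without irisin replicate 1 (Plk1 and Cenpa). Over all genes, 336 to 405 passed as higher in these fits, of 12511 to 12600 fitted, against 516 of 12296 with all 6 libraries. The fit without PBS replicate 3 called 7 members, with 5.6% of all genes passing as higher and 4.65% as lower. In those fits that lost the call, adjusted p was 0.09 to 0.175 for Ccnb2, 0.0667 to 0.157 for Cdc25c, 0.0822 to 0.191 for Plk1 and 0.0888 to 0.152 for Cenpa. Their LFC stayed between 0.32 and 0.61 when any library was left out. With libraries scaled by total counts alone, 0 members passed (adjusted p = 0.0903 for Ccnb2, 0.0615 for Cdc25c, 0.0898 for Plk1 and 0.0733 for Cenpa), and that scaling moved the median LFC of all genes tested from -0.01 to -0.09. DESeq2 called 3 of the 4 and put Cdc25c at an adjusted p of 0.0676.

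Without both PBS replicate 3 and irisin replicate 1, a fit chosen after seeing the data, 11 members passed as higher and 0 as lower. In that fit calls grew over all genes too, to 7.18% higher and 6.34% lower. The 11 are the 4 above with Cdc20, Cenpe, Kif20a, Anln, Racgap1, Spc24 and Top2a. PBS replicate 3 was the highest of the PBS libraries in 38 of the 48, and its summed level over the members was 2929 CPM, against 2502 and 2662 CPM in PBS replicates 1 and 2. The irisin sums were 3058, 2943 and 3094 CPM, so irisin replicate 2 was only just above PBS replicate 3. The sum was 2698 ± 216 CPM in PBS and 3032 ± 78.9 CPM with irisin (SD, n = 3), a ratio of 1.12. Between the libraries that stood apart, irisin replicate 1 over PBS replicate 3, the ratio was 1.04, and irisin was higher in 29 of the 48 members. Between the other 4 libraries it was 1.17, and both irisin values lay above both PBS values in 37 members. The share of all genes was not computed for either of these counts, so they do not show how unusual the members were.

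**Figure D3:**
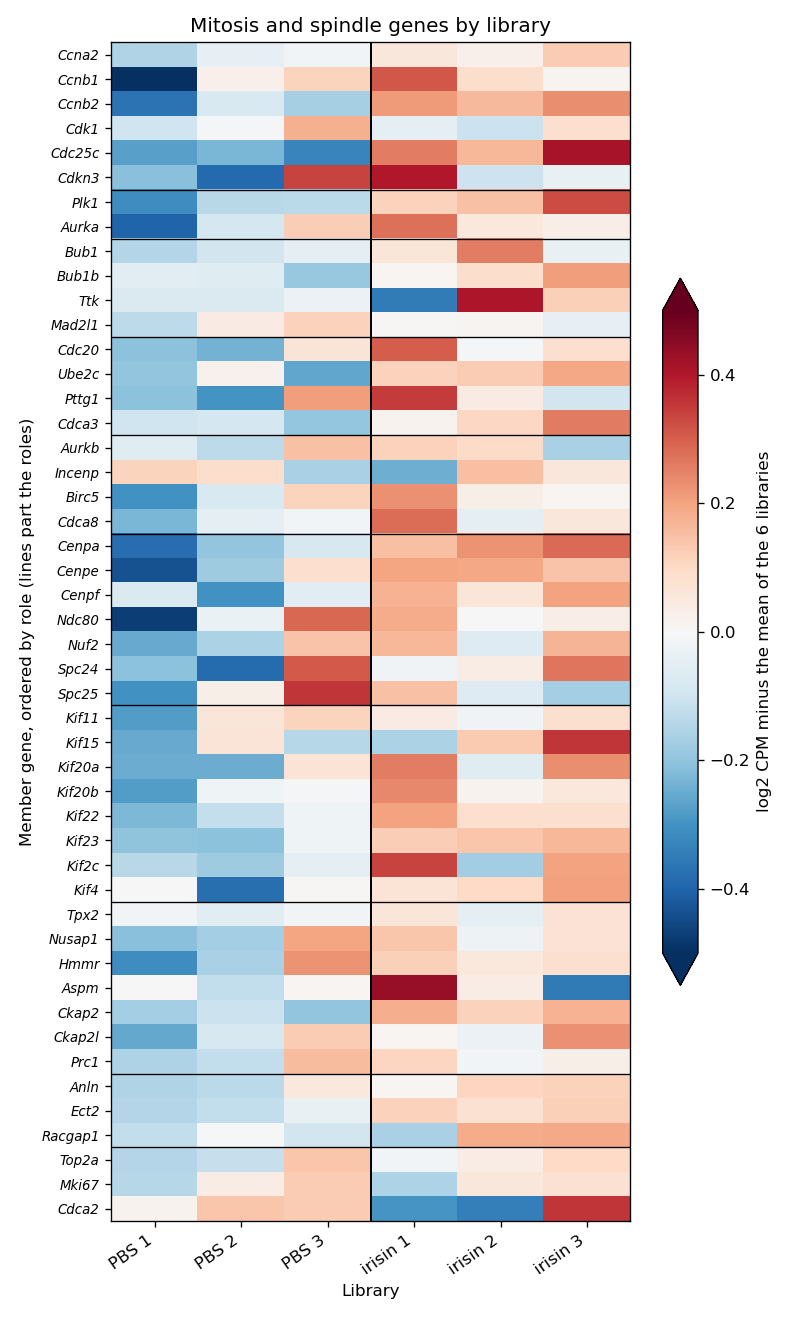
Colours show log2 CPM of each member in each library minus its mean over the 6 libraries, with members in order of role. PBS replicates 1 and 2 are mostly blue, while PBS replicate 3 is red in the Ndc80 complex genes, Hmmr and Nusap1, where it exceeds at least 1 irisin library.

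Among Cdk1 and its direct partners, 2 of 6 rose (Ccnb2 and Cdc25c), against 4.2% of all genes tested. The role groups given here and below are small, and differences in calls between them were not tested. Cdk1, the kinase that drives entry into mitosis, measured 102, 108 and 123 CPM in PBS and 105, 101 and 115 CPM with irisin, and the groups overlapped (LFC -0.05 ± 0.10, adjusted p = 0.882). Ccna2, cyclin A2, which acts from S phase into early mitosis, measured 106, 115 and 117 CPM in PBS and 123, 120.02 and 129 CPM with irisin. Its irisin values lay above its PBS values by a small margin and did not pass (LFC 0.14 ± 0.09, adjusted p = 0.476). Ccnb1, cyclin B1, measured 55.1, 82.2 and 87.4 CPM in PBS and 100.3, 86.0 and 81.7 CPM with irisin, with PBS replicate 1 far below the others (LFC 0.26 ± 0.16, adjusted p = 0.466). Cdkn3, a phosphatase of Cdk kinases, had LFC 0.17 ± 0.21, adjusted p = 0.771. The spindle kinase Aurka, which ripens the centrosomes, had LFC 0.24 ± 0.14, adjusted p = 0.445, next to the riser Plk1.

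The spindle checkpoint genes held 0 calls in 4 members. Bub1b (BubR1, which binds and restrains Cdc20) had LFC 0.20 ± 0.10, adjusted p = 0.337, Bub1, its kinase relative at the kinetochore, LFC 0.19 ± 0.12, adjusted p = 0.466, and Ttk (the kinase Mps1) and Mad2l1 (which seals Cdc20 into the checkpoint complex) had LFC of 0.14 and -0.02. Cdc20, the activator of the APC/C and the checkpoint's target, measured 104, 102 and 125 CPM in PBS and 147, 119 and 126 CPM with irisin, and irisin replicate 2 lay below PBS replicate 3 (LFC 0.25 ± 0.11, adjusted p = 0.251). Without PBS replicate 3, the highest PBS library for Cdc20, it passed (adjusted p = 0.0271). With any other library left out adjusted p was 0.268 to 0.581, and without irisin replicate 1 the LFC was 0.16. Ube2c, the ubiquitin-conjugating enzyme that works with the APC/C, measured 70.5, 82.1 and 67.4 CPM in PBS and 87.5, 88.1 and 92.2 CPM with irisin, with no overlap between groups (LFC 0.28 ± 0.10, adjusted p = 0.140). Pttg1 (securin, which restrains separase) and Cdca3 (a trigger of mitotic entry that the APC/C degrades) had LFC of 0.20 and 0.26, with adjusted p of 0.599 and 0.248.

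The chromosomal passenger complex, which corrects wrong attachments, had 0 calls in 4 members, and the groups overlapped in each. LFC were 0.03 for its kinase Aurkb, -0.02 for the scaffold Incenp, 0.18 for Birc5 (survivin) and 0.20 for Cdca8 (borealin). Among 7 centromere and kinetochore genes Cenpa rose. The kinetochore kinesin Cenpe came next (31.1 ± 5.57 to 39.3 ± 0.861 CPM, SD, n = 3, LFC 0.34 ± 0.14, adjusted p = 0.194), and passed without PBS replicate 3 (adjusted p = 0.0238) and with quality-weighted limma-voom (0.0319). With any other library left out adjusted p for Cenpe was 0.326 to 0.519, and without PBS replicate 1 the LFC was 0.22. Cenpf, a large outer kinetochore protein, had LFC 0.29 ± 0.13, adjusted p = 0.251. The 4 subunits of the Ndc80 complex, which grips microtubule ends, had LFC of 0.12 (Ndc80), 0.18 (Nuf2), 0.17 (Spc24) and -0.07 (Spc25), and PBS replicate 3 was the highest PBS library in all 4.

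Each of the 8 kinesin motors had an LFC above 0, from 0.07 (Kif11, which slides spindle poles apart) to 0.29 (Kif20a), and 0 passed. With total-count scaling Kif11 turned to -0.01. Kif20a, a motor of the central spindle, measured 102, 102 and 126 CPM in PBS and 144, 116 and 142 CPM with irisin, where irisin replicate 2 lay below PBS replicate 3 (LFC 0.29 ± 0.12, adjusted p = 0.201, and adjusted p = 0.0137 without PBS replicate 3 but 0.146 to 0.478 with any other library left out). Kif23, the motor of the centralspindlin complex, was 31.3 ± 2.35 to 38.2 ± 0.607 CPM (LFC 0.29 ± 0.12, adjusted p = 0.198), and its partner Racgap1 measured 102, 111 and 105 CPM in PBS and 99.7, 127 and 127 CPM with irisin. Irisin replicate 1 was the lowest of the 6 libraries for Racgap1 (LFC 0.15 ± 0.11, adjusted p = 0.542). Kif22, a chromosome-arm motor, had LFC 0.24 ± 0.11, adjusted p = 0.240. Kif2c, which takes microtubules apart at centromeres, had LFC 0.26, the chromosome motor Kif4 0.24, Kif15, which backs up Kif11, 0.23, and Kif20b 0.21.

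Of the 7 spindle-associated proteins 0 passed. Ckap2, a microtubule stabiliser, came closest (48.4 ± 1.51 to 60.3 ± 1.49 CPM, LFC 0.32 ± 0.10, adjusted p = 0.0830), and its groups did not overlap. Prc1, which bundles the central spindle, measured 116, 119 and 145 CPM in PBS and 139, 128 and 132 CPM with irisin, with PBS replicate 3 the highest of the 6 (LFC 0.08 ± 0.10, adjusted p = 0.796). Tpx2, which activates Aurka on microtubules, measured 113, 109.6 and 113 CPM in PBS and 119, 111 and 119.88 CPM with irisin (LFC 0.06 ± 0.09, adjusted p = 0.819). With total-count scaling Tpx2 turned to -0.02 and Prc1 to -0.0031. Hmmr, Ckap2l, Nusap1 and Aspm, all bound to spindle microtubules or poles, had LFC of 0.15, 0.14, 0.12 and 0.11. For cytokinesis, Anln (anillin, a scaffold of the cleavage ring) measured 95.6, 96.7 and 110.1 CPM in PBS and 107, 114 and 115 CPM with irisin (LFC 0.15 ± 0.09, adjusted p = 0.455), and Ect2, the exchange factor that activates RhoA there, had LFC 0.21 ± 0.11, adjusted p = 0.339.

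The markers most used to count dividing cells did not pass the test. Top2a, the topoisomerase that untangles sister chromatids, was the most abundant member by counts, at 184, 189 and 225 CPM in PBS and 203, 209 and 219 CPM with irisin, with PBS replicate 3 above each irisin library (LFC 0.08 ± 0.09, adjusted p = 0.760). Mki67, the antigen Ki-67 that coats mitotic chromosomes, was 60.4 ± 5.70 to 59.9 ± 5.18 CPM (LFC -0.01 ± 0.11, adjusted p = 0.977), and Cdca2, which recruits a phosphatase to chromatin, had LFC -0.14 (adjusted p = 0.769). The 95% intervals limit what could have been missed. In 40 of the 44 members not called, both bounds lay within a 1.5-fold change (LFC 0.585). The 4 risers, at LFC 0.39 to 0.56, lay within it too, so this bound does not exclude rises of their size. Upper bounds were 0.54 for Kif20a and 0.53 for Ckap2, but 0.28 for Top2a and 0.23 for Mki67. The upper bound passed 1.5-fold for Ccnb1, Cdkn3, Cenpe and Kif15 (up to an LFC of 0.65), and the lower bound for 0 members (down to -0.53). The difference between the risers and these markers was not itself tested.

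Levels set per kilobase of exon, with all annotated exons of a gene counted, ran over a wide range. Those exons came to 1531 bases for Ccnb2 and 1868 for Cdc20, but to 8225 for Prc1 and 8390 for Mad2l1. A gene whose transcripts use only part of its annotated exons is set too low, so the order of genes is uncertain. In PBS, Cdc20 had the highest level at 59.0 ± 6.93 CPM per kilobase, followed by Ccnb2 (37.7 ± 3.89), Plk1 (30.9 ± 2.12), Ube2c (28.2 ± 2.98) and Ccna2 (27.6 ± 1.36), of which the last 3 lay within about their spread of each other. The lowest were Kif15 (1.36 ± 0.153), Aspm (1.55 ± 0.078) and Cenpf (1.68 ± 0.156). On GRCm38 (mm10) in GENCODE M21, Ccnb2 lies on chromosome 9 (70407692 to 70421547), Plk1 on chromosome 7 (122159439 to 122169873), Cenpa on chromosome 5 (30666777 to 30674830) and Cdc25c on chromosome 18 (34732993 to 34751533), and all 48 members are annotated as protein-coding. Exons of a gene on the other strand overlap those of 12 members, among them Cdc25c (623 bases), Plk1 (156), Kif20a (1271, with Cdc23) and Ube2c (592, with Tnnc2). Whether counting used strand was not found in the labels, so their values are uncertain to that extent.

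Genes around mitosis outside the 48 gave 0 calls. Of 51 tested in a list of 52 (shugoshin, inner kinetochore, other kinesins and regulators), 0 passed in either direction, with 5 higher and 0 lower at an unadjusted p under 0.05 in edgeR, 0 calls in DESeq2 and 1 higher in limma-voom. The 5 are 9.8% of the 51, near the 9.27% of all genes that were higher at that p, where 8.91% were lower. Over the 51 the median LFC was 0.04, and 68.6% were above 0, against 48.7% of all genes. Of 21 tested regulators of mitotic transcription (DREAM and MuvB subunits, E2F factors, NF-Y), 0 passed with edgeR, DESeq2 or limma-voom, with 1 higher and 4 lower at an unadjusted p under 0.05 and a median LFC of -0.12. The regulator higher at that p was Foxm1, a transcription factor of mitotic genes (27.7 ± 3.46 to 35.5 ± 2.90 CPM, LFC 0.35 ± 0.13, adjusted p = 0.163). The 4 lower were E2f6 (LFC -0.56, adjusted p = 0.111), Rbl1 (-0.47, 0.253), Lin52 (-0.45, 0.224) and E2f3 (-0.36, 0.253). Foxm1 and these 4 are named after their values were seen. APC/C genes (17) and condensin and cohesin genes (20) had 0 calls with edgeR, DESeq2 or limma-voom, and medians of -0.02 and -0.01. At an unadjusted p under 0.05 the first of these lists had 0 genes and the second 1 higher and 1 lower.

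DNA replication genes went the other way in the same libraries. Of 45 tested, 0 rose and 9 fell (20.0%, against 3.22% of all genes), with a median LFC of -0.23. At an unadjusted p under 0.05, 17 were lower and 0 higher, against 8.91% and 9.27% of all genes. The irisin values lay wholly below the PBS values in 19 of the 45, against 11.5% of all genes. Cdc6, which loads the replicative helicase onto origins, fell from 20.8 ± 1.17 to 12.1 ± 2.86 CPM (LFC -0.78 ± 0.18, adjusted p = 0.0187). The helicase subunits Mcm6 (from 218 ± 39.2 to 157 ± 6.21 CPM, LFC -0.47 ± 0.12, adjusted p = 0.0274) and Mcm3 (from 145 ± 16.5 to 109 ± 5.01 CPM, LFC -0.41 ± 0.10, adjusted p = 0.0269) fell, as did the replication factor Mcm10 (LFC -0.71 ± 0.18, adjusted p = 0.0321). The other falls included Mcm2, Mcm4, Mcm5 and Cdt1, which loads the helicase with Cdc6. The falls numbered 1 without PBS replicate 2 or irisin replicate 1, 0 without irisin replicate 2, 2 without irisin replicate 3 and 6 without PBS replicate 1 or 3, and 14 without both PBS replicate 3 and irisin replicate 1. Adjusted p, where these calls were lost with 1 library left out, was 0.0692 to 0.102 for Cdc6, 0.0686 to 0.139 for Mcm6, 0.0734 to 0.126 for Mcm3 and 0.0656 to 0.127 for Mcm10. All genes called lower numbered 396 with all 6 libraries, 238 to 585 with 1 left out and 788 without both.

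The summed level of the mitosis and spindle genes divided by that of the replication genes was 0.937, 0.9495 and 0.910 in PBS replicates 1, 2 and 3, and 1.23, 1.301 and 1.22 in irisin replicates 1, 2 and 3. The means were 0.932 ± 0.020 in PBS and 1.25 ± 0.043 with irisin (SD, n = 3), and the groups did not overlap. PBS replicate 3, the highest PBS library for both sums (2929 and 3220 CPM), had the lowest ratio. Both libraries that stood apart kept to their group, at 0.910 and 1.23. The ratio is given as a description, since both lists were drawn up with earlier results of these libraries known.

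**Figure D4:**
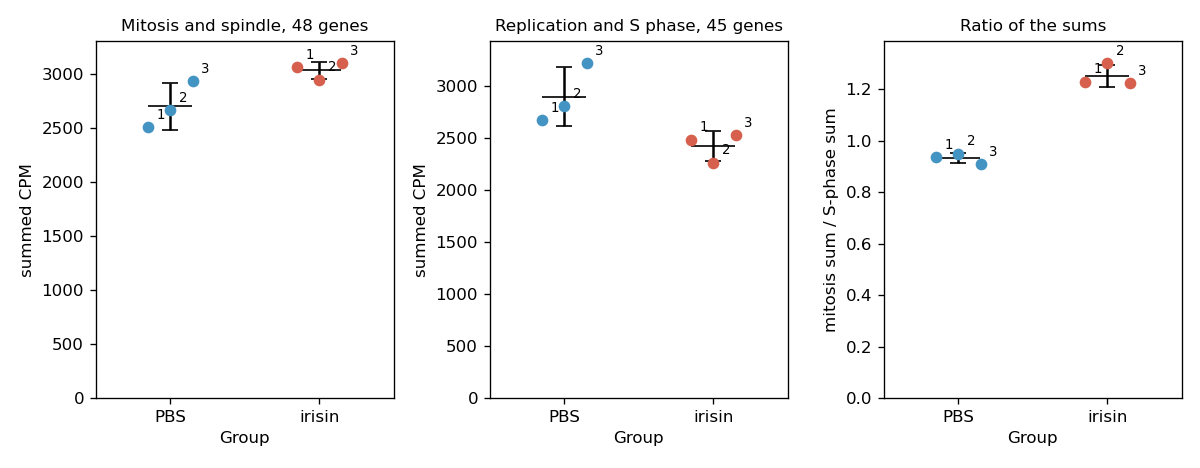
Points are libraries, numbered by replicate, with mean ± SD (n = 3): summed CPM of the 48 mitosis and spindle genes, summed CPM of 45 replication and S-phase genes, and their ratio. The mitosis sum runs from 2502 to 2929 CPM in PBS and 2943 to 3094 CPM with irisin, while the replication sum is lower with irisin in each library.

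Among genes that gate the cycle before mitosis, 2 of 12 tested Cdk inhibitors and arrest genes rose (16.7%, against 4.2% of all genes tested) and 0 fell. Cdkn2b, the Cdk4 and Cdk6 inhibitor p15, rose from 21.4 ± 2.47 to 43.2 ± 5.40 CPM (LFC 1.01 ± 0.14, adjusted p = 0.000429), a call kept under every alternative run. Trp53, the gene of p53, rose from 158 ± 3.73 to 199 ± 16.8 CPM (LFC 0.33 ± 0.09, adjusted p = 0.0399), a call lost, among other settings, in each fit with 1 library left out except the fit without PBS replicate 3 (adjusted p 0.0579 to 0.161), with total counts (0.126) and with DESeq2 (0.0574). Cdkn1a, the p53 target p21, did not pass and had an LFC of -0.28 (adjusted p = 0.145), and is named after its values were seen. Mdm2 (LFC -0.26, adjusted p = 0.118), Btg2 (-0.24, 0.323), Sesn1 (-0.06, 0.878) and Ccng1 (0.08, 0.727) of the same list did not pass either. Over the 12 genes tested, LFC lay above 0 in 6 and below 0 in 6. Of 11 cyclins and kinases of the phase before replication 0 passed with edgeR, with 1 higher and 2 lower at an unadjusted p under 0.05, 1 each way with limma-voom and 0 with DESeq2. At that unadjusted p 9.27% of all genes were higher and 8.91% lower with edgeR. Of 20 tubulin and centrosome genes 1 rose (5%, against 4.2% of all genes tested) and 0 fell. Tubb3, a β-tubulin, rose from 197 ± 6.76 to 240.1 ± 7.43 CPM (LFC 0.29 ± 0.08, adjusted p = 0.0477). That call was lost, among other settings, in the same 5 fits (adjusted p 0.107 to 0.201), with total counts (0.161), DESeq2 (0.0837), upper quartile scaling (0.0519), no robust dispersion (0.0527) and no filter (0.119).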

How the data were processed

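The table the authors deposited holds unnormalized counts, whole numbers, of 55011 gene symbols in 6 libraries. Per the labels' protocols, cultured cells were lysed in plate wells and part of each lysate was made into libraries by ImmGen's ultra-low-input protocol. The tools named in the submitters' processing notes are STAR 2.7.3a and featureCounts, with the build mm10. The annotation release and strand setting were not found there. Groups and replicate numbers come from the sample titles.

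From these counts, edgeR 4.0.16 in R 4.3.3 kept genes by filterByExpr at a count minimum of 10 (12296 of 31436 with any count), scaled by TMM (factors 0.969 to 1.03) and tested irisin against PBS over all of them by quasi-likelihood with robust dispersion, after the steps were tested on simulated data. CPM divides counts by the TMM-scaled sum of tested genes. Exon lengths came from GENCODE M21 and promoters from RefSeq. No library repeated another (chi-square per degree of freedom at least 2.60 between libraries). The members and lists were chosen with earlier results of these data known. Values in each library are printed for called members and the 12 of highest mean CPM, and from each other list the called genes of lowest p, at most 4. Alternatives were RLE, upper quartile and total-count scaling, DESeq2 1.42.0, limma-voom with quality weights per library (limma 3.58.1, called limma-voom in the text), no robust dispersion, no filter, a count minimum of 50, the replicate block, each library left out and an adjusted p of 0.10. A fit on the other 4 libraries, without PBS replicate 3 and irisin replicate 1, was chosen after seeing the data. The values of 1 gene of the replication list are not reported here.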

Additional observations from a re-analysis of the deposited data

How the results depend on the processing

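The count of members called higher, 4, was 0 with total counts and with the replicate block, 0 to 7 with a library left out and 11 without both PBS replicate 3 and irisin replicate 1, and 3 to 5 under the other alternatives. Members called lower numbered 0 under all alternatives. The members' median log2 fold change stayed above 0 (0.11 with total counts, 0.13 to 0.25 with a library left out). All genes called higher numbered 516, and 422 with total counts, 422 with the replicate block, 336 to 705 with a library left out and 892 without both libraries. All genes called lower numbered 396, and 602 with total counts, 623 with limma-voom (libraries weighted by quality), 238 to 585 with a library left out and 788 without both. Replication genes called lower, 9, numbered 3 with the block, 0 to 6 with a library left out and 14 without both. The Trp53 and Tubb3 calls were also lost with the block (adjusted p = 0.116 and 0.149, edgeR). Fits with fewer libraries have fewer residual degrees of freedom, and otherwise the cause was not tested. Deviations of same-numbered libraries from their group means correlated at -0.238, 0.164 and -0.177, and PBS replicate 3 correlated best with irisin replicate 1 (0.360). Within each group of 3 such deviations must sum to 0, so these values cannot settle whether the libraries were paired.

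The sign changed under some alternative in 13 of the 48 members, all not called. With total counts it did so in Aurkb (-0.0474), Kif11 (-0.0131), Tpx2 (-0.0204) and Prc1 (-0.0031), and with limma-voom in Cdk1 (0.0061), Mad2l1 (0.0198), Spc25 (0.0203) and Mki67 (0.0575). Without both libraries it did so in Cdk1 (0.0515), Mad2l1 (0.0339), Incenp (0.0056), Spc25 (0.0153), Aspm (-0.0922) and Mki67 (0.124). With a library left out, log2 fold changes ran from -0.1058 to 0.0362 for Cdk1, -0.0062 to 0.4069 for Cdkn3, -0.0383 to 0.3197 for Ttk (0.333 without both), -0.082 to 0.0404 for Mad2l1, -0.0249 to 0.1166 for Aurkb, -0.1042 to 0.0839 for Incenp, -0.0545 to 0.3211 for Ndc80, -0.2197 to 0.112 for Spc25, -0.0476 to 0.1421 for Kif11, -0.1143 to 0.2933 for Aspm and -0.0829 to 0.0594 for Mki67.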
